A study of Bos taurus with 12 samples.

Results

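Cholesterol synthesis in the bovine corpus luteum was followed through 28 genes: 20 enzymes from acetyl-CoA to cholesterol, the sterol carrier STARD4, the transcription factor genes SREBF1 and SREBF2, and 5 genes that govern the release of these factors. Members were the rows of the deposited tables that carry one of 28 listed gene names and reach 10 counts in at least 4 of the 12 libraries. All 28 listed genes met that minimum, among 14481 genes that met it of 27270 in the tables. The working name of the list also speaks of lipoprotein uptake, but no uptake receptor is among the 28, so uptake is described only from a separate list.

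Luteal tissue came from 12 post-pubertal, non-lactating, multiparous beef cows of mixed breed, all at day 10 of the luteal phase. Every cow, controls included, had earlier been given PGF2α to synchronise its cycle. The 4 control cows (numbers C-4285, C-6464, C-7367 and C-7514) had an intramuscular saline injection. A luteolytic dose of PGF2α, the prostaglandin that ends the life of the corpus luteum, was given to 8 cows, whose ovaries were removed 4 h later (cows 4H-4291, 4H-5341, 4H-6455 and 4H-6456) or 12 h later (cows 12H-5266, 12H-6314, 12H-7382 and 12H-7475). Each cow gave 1 RNA library of whole luteal tissue, so the cow was the replicate (n = 4 per group), and values below follow the cows in the order given here.

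Cells build cholesterol from acetyl-CoA by way of mevalonate, the prenyl diphosphates, squalene and lanosterol, and the luteal cell spends cholesterol on progesterone. Transcription of these enzymes is driven by the sterol regulatory element binding proteins (SREBPs), which are made as membrane precursors in the endoplasmic reticulum. When sterols run low, SCAP carries the precursor to the Golgi apparatus, where the proteases encoded by MBTPS1 and MBTPS2 free the active factor, and when sterols are plentiful INSIG1 and INSIG2 hold SCAP back.

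Levels below are TPM (the share of all transcripts, corrected for transcript length, so that genes can be compared). Changes are log2 fold changes of counts scaled by TMM, tested by the quasi-likelihood test of edgeR over all 14481 genes with Benjamini-Hochberg adjustment, and a gene is said to have risen or fallen where the adjusted p was under 0.05. Total expected counts per library ran from 10263310 to 22600213. Libraries at 12 h differed from control in library-wide measures. Transcripts weighted by their TPM had a mean length of 1413 to 1577 bases at 12 h and 1628 to 1728 bases in control. Mitochondrially encoded genes took 12.4 to 14.1% of counts in 3 of the 12 h cows. In cow 12H-6314 they took 7.22%, inside the control range of 6.77 to 10.0%. On the TPM scale the median gene stood at a log2 difference of -0.25 from control at 12 h, against 0.01 for TMM-scaled counts, so TPM values at 12 h are to be read against that shift. Cow 12H-6314 stood apart among the 12 h libraries and cow 4H-6455 among the 4 h libraries, and values without them are given beside the results that they moved most.

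In control tissue the pathway was abundant. The 28 genes together held 1.03 to 1.26% of all transcripts. HMGCS1, which makes the mevalonate precursor, had a mean of 2461 TPM and was the 45th most abundant of 27270 genes, and MSMO1, which oxidises the methyl groups of early sterols, had 1853 TPM and ranked 61. FDPS at 952 TPM, DHCR7 at 625 TPM and ACAT2 at 613 TPM followed. At the other end stood LBR at 11.6 TPM and GGPS1 at 15.7 TPM. Of the regulators, SCAP was the most abundant at 449.5 TPM, above INSIG1 at 207 TPM and SREBF2 at 134 TPM, and SREBF1 had 38.6 TPM.

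At 12 h post-PGF2α the pathway was lower along most of its length, and at 4 h the main edgeR fit called no fall. At 4 h, 1 of 28 members rose, MBTPS1, and none fell by edgeR, where 8.65% of all genes rose and 5.59% fell. By unadjusted p, 3 members were under 0.05: MBTPS1, INSIG1 and GGPS1, ranked 1156, 2359 and 2486 by p among 14481 genes. DESeq2 called 2 of 28 members and 2749 of 14481 genes. The median change of the members was 0.04 at 4 h and that of all genes -0.03. At 12 h, 16 of 28 members fell, 0 rose and 12 were not called, where 25.3% of all genes fell and 23.6% rose. The median change of the members was -0.64 and that of all genes 0.01, and 25 of 28 members were below 0. In TPM, all 4 cows at 12 h were below all 4 controls for 24 of 28 members, against 34.9% of all genes.

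**Figure D1:**
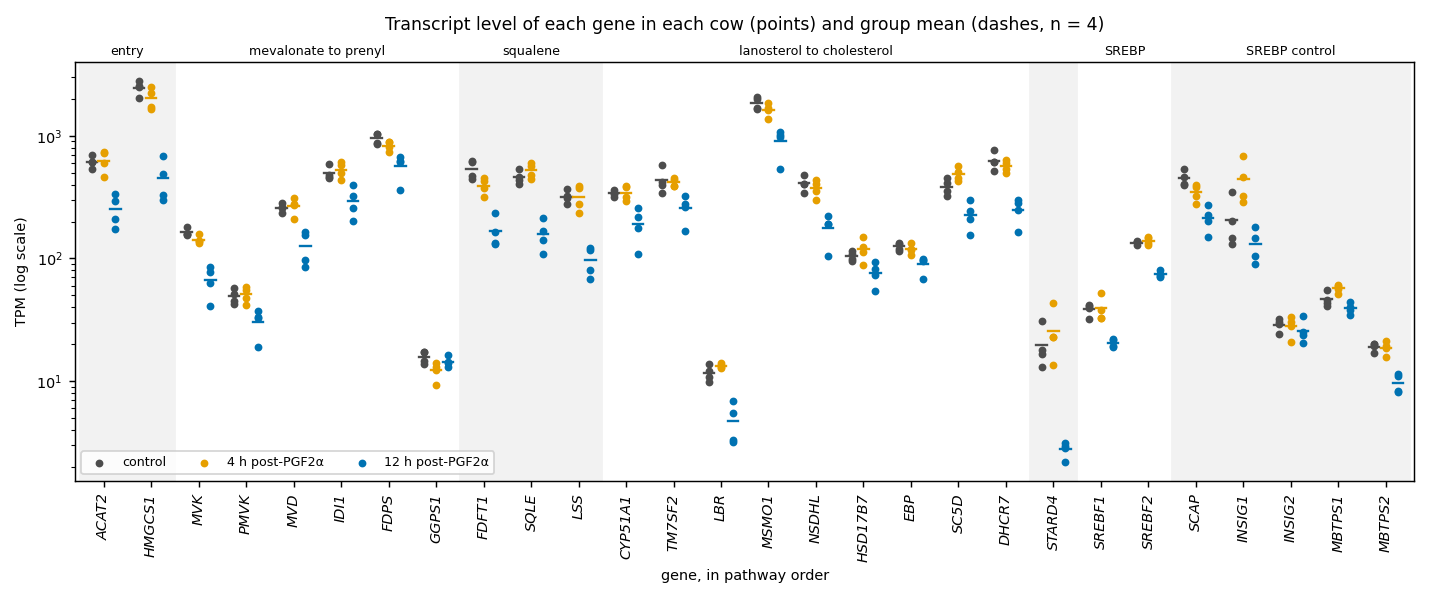
TPM of the 28 genes in each of the 12 cows on a log axis, in pathway order, with points for cows and dashes for group means (n = 4). Control and 4 h points lie together for most genes, and the 12 h points lie below all 4 controls for 24 of 28 genes.

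**Figure D2:**
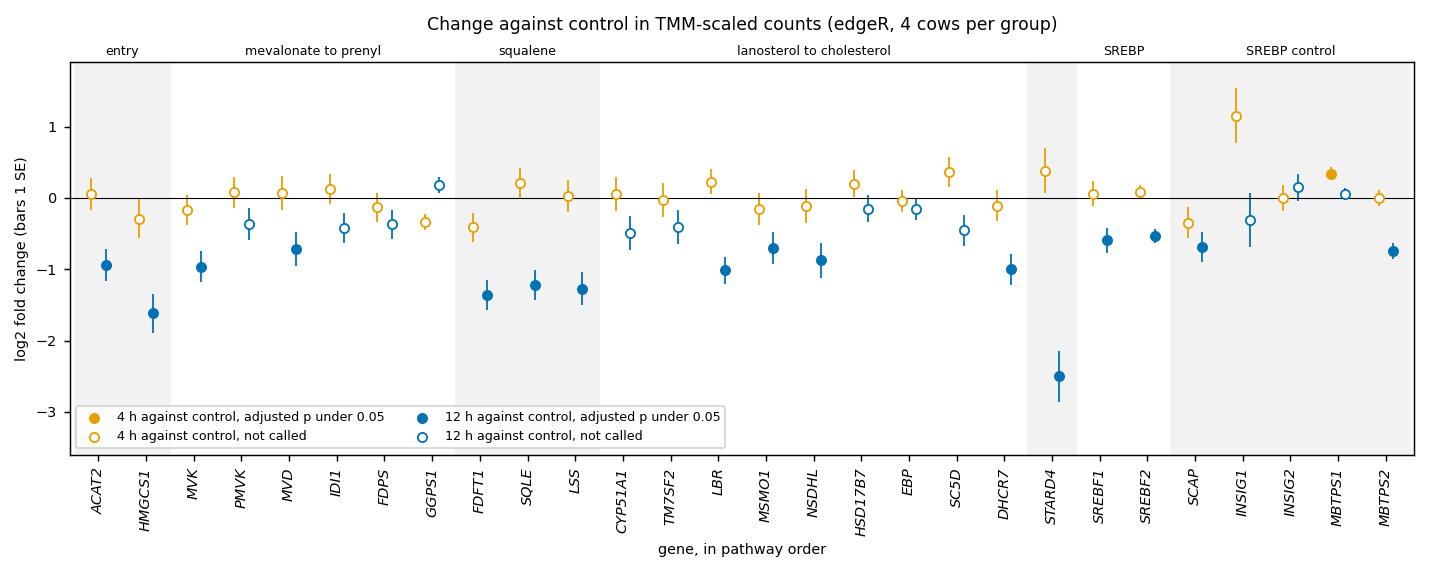
Change of each of the 28 genes against control, as log2 fold change of TMM-scaled counts from edgeR with bars of 1 SE. Filled points passed an adjusted p of 0.05: MBTPS1 alone at 4 h and 16 genes at 12 h, all 16 below 0.

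Summed over the 28 genes, control cows held 10295 to 12612 TPM, cows at 4 h 9667 to 12025 TPM and cows at 12 h 3288 to 6095 TPM. The 12 h range lies below both others without overlap. The low value of 3288 TPM is cow 12H-6314, the lowest of the 12 h cows for 20 of 28 members and for 17 of the 20 enzymes. Without this cow the median change at 12 h was -0.45 and 15 members fell, and without cows 12H-6314 and 4H-6455 together it was -0.51 and 16 fell. Leaving out other cows in turn gave counts of 13 (without control cow C-7367) to 19 (without 12 h cow 12H-7382). Of all genes, 3347 of 14386, 3778 of 14294, 3303 of 14413 and 3506 of 14431 fell in these fits, in the order named.

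Both genes at the entry into the pathway fell at 12 h, where 25.3% of all genes fell. ACAT2 joins 2 molecules of acetyl-CoA. It stood at 532, 608, 702 and 608 TPM in control cows, 735, 722, 463 and 596 TPM at 4 h, and 292, 175, 335 and 211 TPM at 12 h. All 12 h cows were below all others, and the change was -0.94 (SE 0.23, edgeR adjusted p = 0.00444). HMGCS1 adds the next acetyl-CoA. It stood at 2017, 2550.3, 2777 and 2499.7 TPM in control cows, 2229, 2506, 1708 and 1661 TPM at 4 h, and 493, 299, 689 and 329 TPM at 12 h. Here too the 12 h cows lay apart from every other cow, and counts fell by 1.62 on the log2 scale (SE 0.28, edgeR adjusted p = 0.000489). At 4 h, HMGCS1 was -0.29 (SE 0.27, edgeR adjusted p = 0.515) and its cows overlapped with control.

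From mevalonate to the prenyl diphosphates, 2 of 6 genes fell and 4 were not called, where 25.3% of all genes fell. MVK, mevalonate kinase, stood at 159, 159, 179 and 156 TPM in control cows, 158, 138, 133 and 139 TPM at 4 h, and 78.0, 40.7, 85.0 and 62.8 TPM at 12 h. Every 12 h cow lay below the rest, with a change of -0.96 (SE 0.21, edgeR adjusted p = 0.00273). MVD, which decarboxylates mevalonate diphosphate, stood at 259, 283, 263 and 235 TPM in control cows, 277, 271, 309.5 and 209 TPM at 4 h, and 155, 84.8, 166 and 96.7 TPM at 12 h. The 12 h cows lay below the other 8, but the change of -0.71 (SE 0.24, edgeR adjusted p = 0.0249) lost its call without control cow C-4285, C-6464 or C-7367 or 12 h cow 12H-6314 or 12H-7475, with adjusted p of 0.0504, 0.0728, 0.0518, 0.064 and 0.0704.

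The other 4 genes of this stretch were less changed in counts. PMVK, phosphomevalonate kinase, ranged from 42.9 to 57.2 TPM in control and 19.0 to 37.2 TPM at 12 h (change -0.36, SE 0.23, edgeR adjusted p = 0.203). IDI1, the isomerase of the isoprene unit, ranged from 449.8 to 590.2 TPM in control and 202 to 394 TPM at 12 h (change -0.43, SE 0.21, edgeR adjusted p = 0.113). FDPS, farnesyl diphosphate synthase, ranged from 861 to 1039 TPM in control and 363 to 669 TPM at 12 h (change -0.37, SE 0.20, edgeR adjusted p = 0.139). For these 3 genes the TPM ranges do not overlap while the scaled counts do. GGPS1, which makes the longer geranylgeranyl diphosphate used for protein prenylation, behaved differently. It had 17.2, 17.3, 13.8 and 14.5 TPM in control cows, 14.1, 12.4, 9.25 and 13.1 TPM at 4 h, and 12.9, 16.2, 13.96 and 14.3 TPM at 12 h, so control and 12 h cows overlapped. At 4 h its change was -0.33 (SE 0.11, edgeR adjusted p = 0.0699), and with each library's trend of counts with transcript length taken out -0.38 (adjusted p = 0.0401). Scaled counts of GGPS1 were lower in every 4 h cow than in every control, while its TPM overlapped. Its change at 12 h was 0.18 (95% interval -0.07 to 0.43, edgeR adjusted p = 0.21), and of the 20 enzymes it alone was above 0 on scaled counts, though it was at -0.12 by limma on log2(TPM + 1). In cow 12H-6314, the lowest of its group for most enzymes, GGPS1 was the highest, as were LBR, MBTPS1 and MBTPS2.

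All 3 genes that commit farnesyl diphosphate to sterols fell at 12 h, where 25.3% of all genes fell. FDFT1, squalene synthase, stood at 620.0, 474, 444 and 606 TPM in control cows, 453, 425, 375 and 318 TPM at 4 h, and 164, 134, 237 and 131 TPM at 12 h. No 12 h cow reached the lowest cow of another group, and the change was -1.36 (SE 0.21, edgeR adjusted p = 0.000233). SQLE, squalene epoxidase, stood at 434, 538, 463 and 407 TPM in control cows, 568, 599, 446 and 479 TPM at 4 h, and 166, 108, 214 and 142 TPM at 12 h. The 12 h cows lay below the other 8 again, with a change of -1.22 (SE 0.21, edgeR adjusted p = 0.000586). LSS, lanosterol synthase, closes the ring system. It stood at 279, 311, 365 and 324 TPM in control cows, 376, 389, 234 and 280.0 TPM at 4 h, and 118, 67.7, 123 and 80.3 TPM at 12 h. Its 12 h cows were likewise apart from the other groups, which overlapped, and the change was -1.27 (SE 0.23, edgeR adjusted p = 0.000704). At 4 h, SQLE (0.21) and LSS (0.03) were not called, nor was FDFT1 (-0.41, SE 0.20, edgeR adjusted p = 0.202), the most negative of the 28 changes at 4 h. Scaled counts of FDFT1 were lower in every 4 h cow than in every control, while its TPM overlapped.

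From lanosterol to cholesterol, 4 of 9 genes fell and 5 were not called, where 25.3% of all genes fell. LBR is a protein of the inner nuclear membrane that also reduces a sterol double bond, a reaction it shares with TM7SF2. LBR stood at 12.1, 13.7, 9.86 and 10.9 TPM in control cows, 13.6, 12.8, 12.9 and 13.9 TPM at 4 h, and 3.30, 6.86, 5.51 and 3.17 TPM at 12 h. The 12 h cows were below the rest and the change was -1.01 (SE 0.19, edgeR adjusted p = 0.00077). TM7SF2 was more abundant and less changed, with 343 to 583 TPM in control, 168 to 321 TPM at 12 h and a change of -0.41 (95% interval -0.92 to 0.10, edgeR adjusted p = 0.168). The ratio of TM7SF2 to LBR was 28.4 to 59.1 in control and 24.5 to 97.1 at 12 h, ranges that overlap.

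MSMO1 and NSDHL act in the removal of methyl groups. MSMO1 stood at 1644, 2079, 1990.2 and 1699 TPM in control cows, 1864, 1619.8, 1384 and 1688 TPM at 4 h, and 1016, 534, 1077 and 982 TPM at 12 h. Levels at 12 h lay below those of the other 8 cows, which overlapped. The change was -0.70 (SE 0.23, edgeR adjusted p = 0.0232), a call lost without control cow C-6464 or C-7367 and in a fit of the 2 groups alone (adjusted p = 0.0709, 0.056 and 0.0526). NSDHL stood at 342, 406, 484 and 405 TPM in control cows, 434, 406, 300 and 353 TPM at 4 h, and 220.4, 104, 191 and 191 TPM at 12 h. Every 12 h cow was lower than every other cow, with a change of -0.88 (SE 0.24, edgeR adjusted p = 0.00946). DHCR7, the reductase of the final step in a branch of the pathway, stood at 514, 609.6, 769.7 and 608 TPM in control cows, 637, 603, 501 and 541 TPM at 4 h, and 297, 164, 283 and 249.7 TPM at 12 h. It was lower in all 12 h cows and the change was -1.0 (SE 0.22, edgeR adjusted p = 0.00244).

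The remaining genes of late synthesis were not called at 12 h. CYP51A1, which removes a methyl group from lanosterol, had 315 to 364 TPM in control and 108 to 260.4 TPM at 12 h (change -0.49, SE 0.24, edgeR adjusted p = 0.11). SC5D, a sterol desaturase, had 323 to 449.7 TPM and 154 to 299.6 TPM (change -0.46, SE 0.21, edgeR adjusted p = 0.0934). HSD17B7, a reductase of sterol ketones, had 95.8 to 115 TPM and 54.2 to 92.9 TPM, and EBP, a sterol isomerase, had 115 to 134 TPM and 68.0 to 98.1 TPM. Their changes were -0.15 (95% interval -0.57 to 0.27) and -0.16 (95% interval -0.50 to 0.18). Without cow 12H-6314 both changed sign, to 0.0672 for HSD17B7 and 0.0389 for EBP (edgeR adjusted p = 0.72 and 0.761). In TPM all 9 genes of this stretch were lower in every 12 h cow than in every control cow, as were 34.9% of all genes. For 5 of the 9 the 2 scales thus differ.

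The summed TPM of each stretch of enzymes was below the control mean at 12 h. Summed TPM of ACAT2 and HMGCS1 was 23.0% of the control mean, that of FDFT1, SQLE and LSS 32.0%, that of the 9 genes from CYP51A1 to DHCR7 50.7%, and that of the 6 genes from MVK to GGPS1 56.7%. At 4 h the same sums were 86.4%, 93.8%, 95.3% and 94.8%. No test was made of these sums, since the genes were chosen with earlier results in view. HMGCS1 and MSMO1 carry much of their sums. Scaled counts do not use the transcript length. On that scale HMGCS1 was at 32.5% of control, below FDFT1 at 38.9%, SQLE at 43.0% and LSS at 41.5%. ACAT2 was above them at 52.0%. Sums were not taken in scaled counts, so the sizes of the gaps between stretches hold for TPM only.

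**Figure D3:**
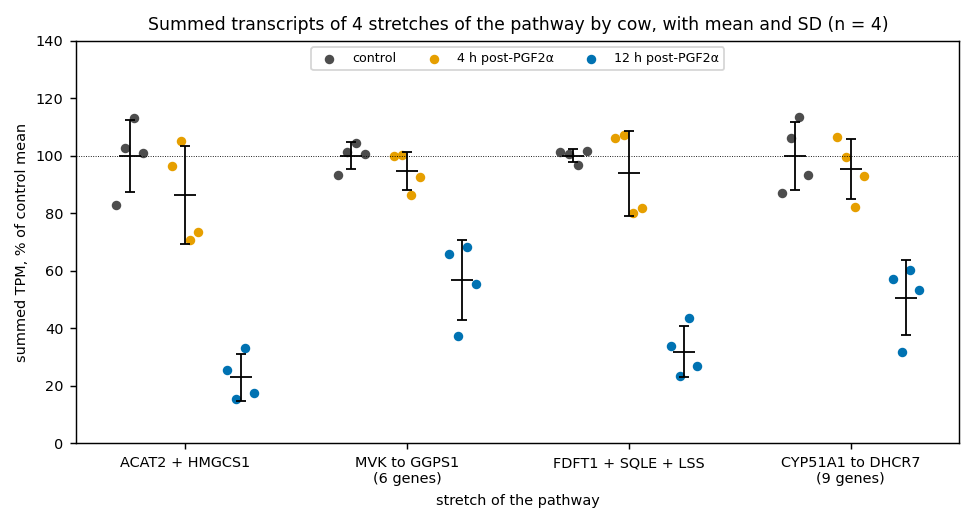
Summed TPM of 4 stretches of the pathway in each cow, as a percentage of the control mean, with mean and SD (n = 4). The 12 h means are 23.0, 56.7, 32.0 and 50.7% from left to right, and cow 12H-6314 is the lowest 12 h point in each stretch.

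STARD4, a soluble carrier that moves cholesterol between membranes, had the lowest change of the 28 genes. It stood at 12.98, 16.6, 18.02 and 31.2 TPM in control cows, 22.7, 23.0, 13.5 and 43.0 TPM at 4 h, and 3.15, 2.97, 2.87 and 2.20 TPM at 12 h. Control and 4 h cows overlapped and varied widely, and the 12 h cows were low and close to each other, with 14 to 27 counts each. Counts fell by 2.5 on the log2 scale at 12 h (SE 0.36, edgeR adjusted p = 0.000164), to 17.7% of control, and the change at 4 h was 0.38 (SE 0.32, edgeR adjusted p = 0.465).

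Both SREBP genes fell at 12 h, where 25.3% of all genes fell. SREBF1, whose products act mainly on fatty acid synthesis, stood at 32.2, 41.8, 41.0 and 39.6 TPM in control cows, 38.3, 33.0, 52.4 and 33.0 TPM at 4 h, and 21.96, 21.6, 18.9 and 19.2 TPM at 12 h. The 12 h cows were below the other 8, and the change was -0.60 (SE 0.17, edgeR adjusted p = 0.0124). SREBF2, whose product acts mainly on cholesterol synthesis, stood at 136, 138, 136 and 128 TPM in control cows, 149.8, 147, 128 and 134 TPM at 4 h, and 74.8, 71.2, 80.2 and 71.5 TPM at 12 h. Cows of a group were close together, and the 12 h cows lay apart, with a change of -0.54 (SE 0.10, edgeR adjusted p = 0.000881). The ratio of SREBF2 to SREBF1 was 3.52 ± 0.46 in control, 3.72 ± 0.87 in 4 h cows and 3.67 ± 0.43 in 12 h cows (SD, n = 4), with overlapping ranges. Both calls were lost when each library's trend of counts with transcript length was taken out: SREBF1 was then -0.41 (adjusted p = 0.0955) and SREBF2 -0.27 (adjusted p = 0.0793).

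Among the 5 genes that retain, escort or cut the SREBPs, 2 fell at 12 h, where 25.3% of all genes fell. SCAP stood at 457, 400.0, 539 and 402 TPM in control cows, 323, 397, 281 and 382 TPM at 4 h, and 274, 151, 224 and 202 TPM at 12 h. At 4 h SCAP was lower in TPM than in any control cow, while its scaled counts overlapped and its change was -0.35 (SE 0.21, edgeR adjusted p = 0.305). The 12 h cows were the lowest, and the change was -0.69 (SE 0.21, edgeR adjusted p = 0.0185), a call lost without control cow C-7367 (adjusted p = 0.0577) and with the length correction (-0.45, adjusted p = 0.115). MBTPS2, the protease that makes the second cut inside the membrane, stood at 20.02, 16.9, 19.5 and 20.1 TPM in control cows, 18.5, 21.3, 15.9 and 19.5 TPM at 4 h, and 8.24, 11.5, 10.97 and 8.22 TPM at 12 h. It was lower in every 12 h cow, with a change of -0.74 (SE 0.11, edgeR adjusted p = 0.000248), and its call at 12 h held in every alternative fit run.

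The levels of INSIG1 were high at 4 h, unlike those of the enzymes. INSIG1 is itself a target of the SREBPs and holds SCAP in the endoplasmic reticulum. It stood at 131, 346, 148 and 201 TPM in control cows, 320.3, 466, 687 and 291 TPM at 4 h, and 148, 90.1, 182 and 104 TPM at 12 h. All 4 h cows were above 3 of the 4 controls, but control cow C-6464 lay among them. The change at 4 h was 1.15 (SE 0.38, edgeR adjusted p = 0.0651), which misses the threshold. DESeq2 gave 1.17 with an adjusted p of 0.0144, and edgeR without cow C-6464 gave 1.55 with an adjusted p of 0.0222. Without cow 4H-6455, which had the highest INSIG1, the change was 0.81 (edgeR adjusted p = 0.172). Against control at 12 h the change was -0.31 (95% interval -1.14 to 0.51, edgeR adjusted p = 0.519). INSIG1 fell by 1.46 from 4 h to 12 h (SE 0.39, edgeR adjusted p = 0.00813), and all 12 h cows were below all 4 h cows. Without cows 4H-6455 and 12H-6314 this was -0.96 (adjusted p = 0.0531). Cow 4H-6455, with the highest INSIG1, was the lowest 4 h cow for 14 of the 20 enzymes. Summed over the enzymes, the 4 h cows held 10865, 10844, 8416 and 9117 TPM, so cow 4H-6456, with the lowest INSIG1, was also low. A relation between INSIG1 and the enzymes was not tested.

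INSIG2, the related gene, stood at 24.1, 30.3, 31.9 and 29.2 TPM in control cows, 30.5, 33.6, 21.0 and 28.4 TPM at 4 h, and 25.2, 23.7, 33.8 and 20.4 TPM at 12 h. The 3 groups overlapped. Its change was 0.00 at 4 h (95% interval -0.40 to 0.40, edgeR adjusted p = 0.993) and 0.15 at 12 h (95% interval -0.25 to 0.55, edgeR adjusted p = 0.533). INSIG1 was thus 4.65 to 11.4 times as abundant as INSIG2 in control cows, 10.2 to 32.7 times at 4 h and 3.80 to 5.87 times at 12 h. The 4 h and control ranges of this ratio overlap through cow C-6464.

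MBTPS1, the protease of the first cut, was the only member called at 4 h. It stood at 54.8, 40.7, 43.6 and 46.3 TPM in control cows, 59.1, 61.3, 51.5 and 55.9 TPM at 4 h, and 34.9, 44.6, 40.5 and 37.8 TPM at 12 h. In TPM the 4 h cows overlapped with control cow C-4285, whereas in scaled counts they were all above control. The change at 4 h was 0.34 (SE 0.08, edgeR adjusted p = 0.0192), and limma on log2(TPM + 1) gave 0.30 with an adjusted p of 0.0999. At 12 h it was 0.06 (95% interval -0.12 to 0.24, edgeR adjusted p = 0.576). With the length correction it rose at 12 h (0.26, adjusted p = 0.0177), and IDI1 (-0.53, adjusted p = 0.0454) and SC5D (-0.54, adjusted p = 0.0477) fell. In that fit 15 members fell and 1 rose, where 3298 of 14481 genes fell and 3476 rose.

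**Figure D4:**
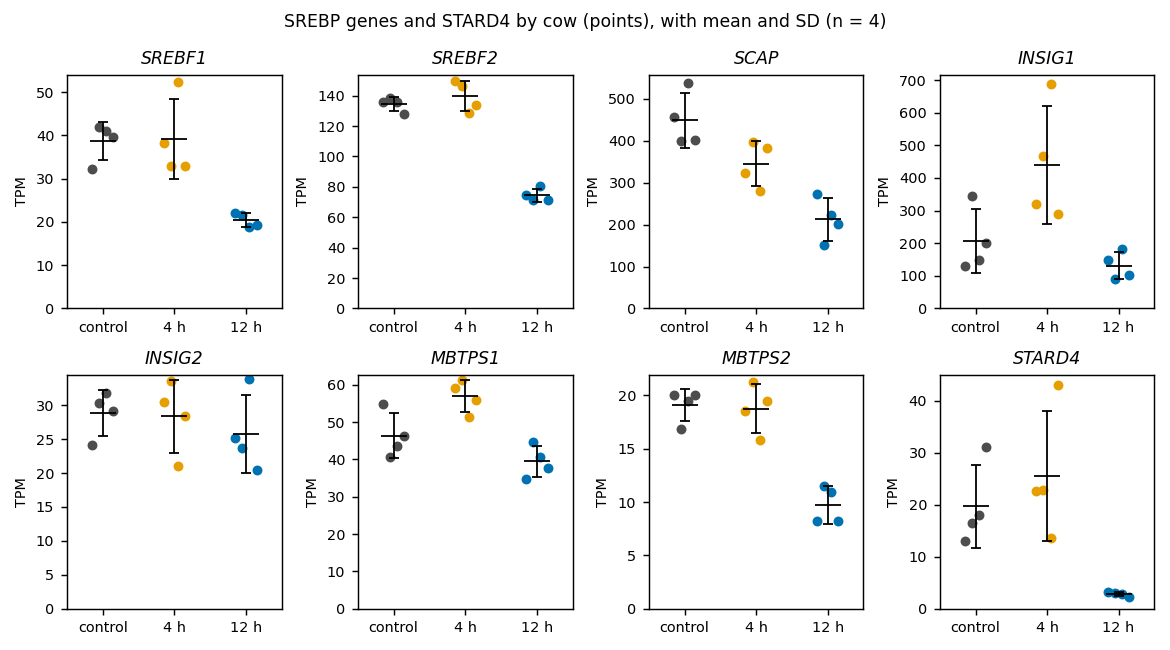
TPM of the SREBP genes, their 5 regulators and STARD4 in each cow, with mean and SD (n = 4). INSIG1 is high at 4 h with control cow C-6464 (346 TPM) among the 4 h values, INSIG2 overlaps in all groups, and SREBF1, SREBF2, MBTPS2 and STARD4 at 12 h lie below every other cow.

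Between 4 h and 12 h, 18 of 28 members fell and 1 rose, where 24.3% of all genes fell and 22.5% rose. The median change of the members was -0.70 and that of all genes 0.02. This comparison and that of 12 h with control share the 12 h cows, so they are not independent. The 1 that rose was GGPS1 (0.51, SE 0.11, edgeR adjusted p = 0.00297), with 4 h cow 4H-6455 the lowest at 9.25 TPM; limma on log2(TPM + 1) gave 0.23 with an adjusted p of 0.197. Without cow 4H-6455, edgeR gave 0.42 (adjusted p = 0.00499). MVD fell by 0.79 (edgeR adjusted p = 0.0163), a call lost without cows 4H-6455 and 12H-6314 (-0.50, adjusted p = 0.0583). SC5D and IDI1, which were not called against control, fell against 4 h by 0.82 (SE 0.21, edgeR adjusted p = 0.00734) and 0.55 (SE 0.21, edgeR adjusted p = 0.0477). The call of IDI1 was lost in 12 of the alternative fits.

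Tested on TPM in place of scaled counts, more of the pathway was called at 12 h. By limma on log2(TPM + 1), 24 of 28 members fell and 0 rose, where 38.9% of all genes fell and 10.4% rose. The 4 not called were GGPS1, INSIG1, INSIG2 and MBTPS1. The members' median was -0.90 and that of all genes -0.25, a gap of -0.65, and on TMM-scaled counts the gap was likewise -0.65. Below 0, the changes of GGPS1 (-0.12), INSIG2 (-0.17) and MBTPS1 (-0.22) on this scale were smaller in size than the shift of the median gene.

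The estimated mean transcript length of HMGCS1 also differed at 12 h. For each cow the files give the mean length of a gene's transcripts weighted by the estimated share of each, and 15 of the 28 members have at least 2 annotated transcripts. This comparison was added after seeing the data. For HMGCS1, which has 2 transcripts (ARS-UCD 1.2, chromosome 20, 31431008 to 31456871), the mean length was 3389.9, 3419, 3428 and 3295 bases in control cows, 3236, 3170.5, 3569.8 and 3309 bases at 4 h, and 4882, 4452, 4599 and 4986 bases at 12 h. The 12 h cows were all longer than the other 8, by 39.8% of the control mean (exact permutation test, two-sided p = 0.0286, the smallest that 4 against 4 cows can give). This was the 4th largest ratio among 6993 genes with at least 2 transcripts. The p was not adjusted for the choice of HMGCS1 after the data were seen. Of the 6993 genes, 12.2% lay above all controls and 8.38% below in the same way. Counts of HMGCS1 at 12 h were 32.5% of control, while its TPM, which divides by this length, was lower still. The median gene was also lower in TPM at 12 h, at -0.25 on the log2 scale. How far HMGCS1 fell in TPM thus depends both on that shift and on how reads were shared between its transcripts. The difference of 1347 bases was 1262 to 1439.8 with each cow left out in turn.

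Of the other 14 genes, 6 had longer transcripts in all 12 h cows than in all controls and 1, SC5D, had shorter ones. With HMGCS1 that is 7 of 15 above and 1 of 15 below, where 12.2% of the 6993 genes lay above and 8.38% below. LSS went from 3592 ± 31.9 to 3899 ± 19.0 bases (8.54% longer) and SCAP from 4498 ± 16.8 to 4668 ± 54.6 bases (3.80% longer). FDPS, TM7SF2, SREBF1 and INSIG1 were longer by 0.939 to 2.63%, and SC5D was -1.13% on the same measure (SD, n = 4 each). At 4 h INSIG1 alone lay apart from control. The part of read coverage and of the library-wide difference in transcript length in these values was not tested.

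**Figure D5:**
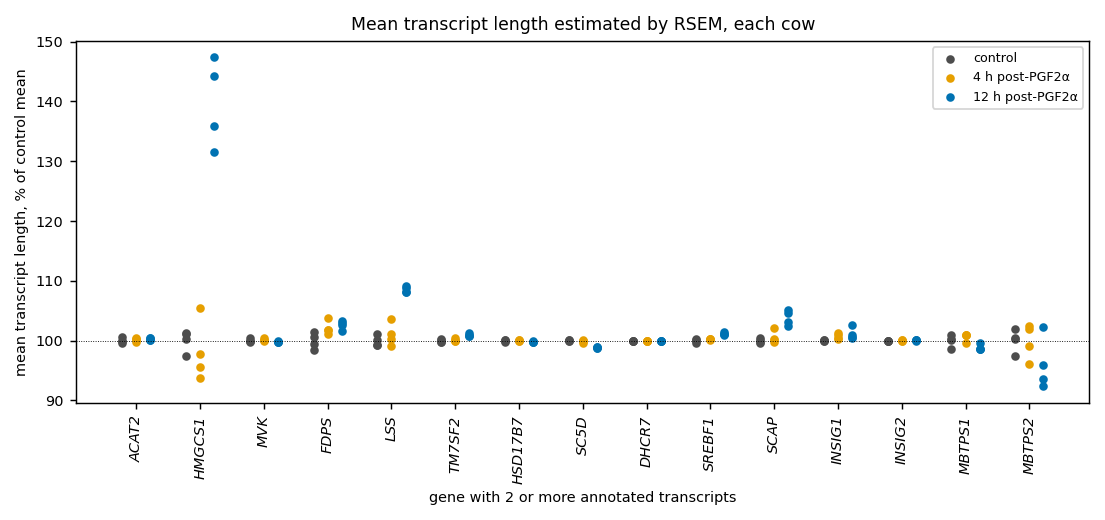
Mean transcript length of the 15 members with at least 2 annotated transcripts in each cow, as a percentage of the control mean. HMGCS1 at 12 h stands 39.8% above control on average, LSS 8.54% and SCAP 3.80%. MBTPS2 is at -3.97% on average, with 12 h cows that overlap control. The other 12 h means lie closer to the line.

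Markers of several cell types changed over the same hours. Their counts at 12 h stand beside 25.3% of all genes that fell and 23.6% that rose. In whole tissue, fewer cells of a type and less RNA per cell cannot be told apart. Of 8 markers of steroidogenic luteal cells, 6 fell at 12 h (STAR, HSD3B1, LHCGR, NR5A1, FDX1 and CYP11A1) and 0 rose, and their summed level was 20384 to 30031 TPM in control, 19149 to 23006 TPM at 4 h and 5164 to 10672 TPM at 12 h. None of the 8 was at 0 in any cow; the lowest value was 10.8 TPM, of LHCGR. Of 12 macrophage and monocyte markers, 9 rose and 0 fell at 12 h, with sums of 230.3 to 705 TPM in control, 285 to 556 TPM at 4 h and 585 to 915 TPM at 12 h. Of 6 neutrophil markers, 5 rose, with sums of 23.2 to 39.1 TPM, 41.5 to 145 TPM and 98.5 to 264 TPM in the same order. Sums of the endothelial, pericyte, fibroblast and lymphocyte markers overlapped between 12 h and control, with 0 of 8, 2 of 6, 2 of 6 and 1 of 6 that rose and 1, 1, 0 and 0 that fell. Of 3 erythrocyte genes, 1 reached the count minimum and rose, and their sum did not pass 11.04 TPM in any cow. The part of cell makeup in the changes of the 28 genes was not tested.

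Genes around the pathway were followed from lists chosen with earlier results known, and their counts at 12 h stand beside 25.3% of all genes that fell and 23.6% that rose. Of 4 genes of acetyl-CoA supply, 3 fell and 0 rose at 12 h: ACLY, which makes cytosolic acetyl-CoA from citrate (-1.70, SE 0.22), ACSS2, which makes it from acetate (-1.92, SE 0.25), and SLC25A1, the mitochondrial citrate carrier (-0.93, SE 0.20). Of 8 SREBP targets of fatty acid synthesis, 6 fell and 0 rose, among them ACACA (-1.86, SE 0.17) and FASN (-1.90, SE 0.24), which build the fatty acid chain, and ELOVL6 (-1.47, SE 0.18), which lengthens it. At 4 h no gene of either list was called by edgeR, with 0 of 4 and 1 of 8 at an unadjusted p under 0.05. The edgeR adjusted p of these 6 genes at 12 h lay between 1.12e-05 and 0.00234.

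Of 10 genes of the isoprenoid branches, 4 fell and 2 rose at 12 h, against 25.3% and 23.6% of all genes. DHDDS, of dolichol synthesis, fell by 0.57 (SE 0.10), PDSS2, of ubiquinone synthesis, fell by 0.88 (SE 0.16), and RABGGTB, a subunit of the enzyme that prenylates Rab proteins, rose by 0.53 (SE 0.08). The others, outside the naming rule and picked after their values were seen, were RABGGTA (-0.45) and PGGT1B (-0.40), which fell, and FNTA (0.32), which rose. Of 11 endoplasmic reticulum ligases and partners of INSIG and SCAP, 6 fell and 1 rose, beside the same shares of all genes. VCP (-0.68, SE 0.09), ERLIN1 (-0.64, SE 0.08) and NPLOC4 (-0.45, SE 0.09) had the smallest p, and the 1 that rose was UFD1 (0.44), also named after its value was seen. At 4 h, RABGGTA (-0.50) was the 1 gene of the isoprenoid list that fell, and none of the ligase list was called.

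Of 8 genes of sterol uptake and release, 3 rose and 1 fell at 12 h, beside 23.6% and 25.3% of all genes. Those that rose were NPC2, which hands cholesterol on in the lysosome (0.63, SE 0.11), VLDLR, a lipoprotein receptor (0.70, SE 0.13), and LIPA, the lysosomal lipase of cholesteryl esters (0.78, SE 0.17). The edgeR adjusted p of these 3 lay between 0.000649 and 0.0022. LRP1, named after its value was seen, fell by 0.72 (SE 0.21). At 4 h NPC1 (0.50) and LRP8 (0.71) rose and none fell. Of 7 genes that use cholesterol for progesterone, 5 fell and 2 rose at 12 h. HSD3B1, which makes progesterone from pregnenolone, fell by 3.15 (SE 0.25), STAR, which brings cholesterol into the mitochondrion, fell by 2.49 (SE 0.37), and TSPO, an outer mitochondrial membrane protein, rose by 0.68 (SE 0.11). FDXR (-1.35), FDX1 (-0.85) and CYP11A1 (-0.81) also fell and STARD3 (0.40) rose, named after their values were seen. At 4 h HSD3B1 fell by 0.78 (SE 0.23). STAR, HSD3B1, FDX1 and CYP11A1 stand in both this list and the steroidogenic marker list.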

How the data were processed

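RNA of whole corpora lutea from 12 cows was sequenced, 1 library per cow. The authors deposited 1 RSEM table per cow with expected counts (estimated reads per gene, not always whole), TPM, FPKM and mean transcript lengths; FPKM was not used here. The submitters' processing notes name STAR 2.5, RSEM 1.3 and the build ARS-UCD 1.2. Whether counting used strand is not given in the sources used here. The cows were taken as separate animals from their numbers in the labels.

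After rounding of the expected counts, genes reaching 10 in 4 or more libraries were fitted in all 3 groups together by edgeR 4.0.16 (TMM, quasi-likelihood test) in R 4.3.3, with Benjamini-Hochberg adjustment within each comparison and a threshold of 0.05. TPM values were tested by limma 3.58.1 on log2(TPM + 1) and log2(TPM + 0.1), scales on which changes of low genes are understated. Other alternatives were DESeq2 1.42.0, RLE scaling, no minimum, a minimum of 50, the 2 groups alone, no mitochondrial genes, a spline of effective length (5 degrees of freedom), each cow left out, and cows 4H-6455 and 12H-6314 left out together. Both count models were first run on simulated counts with known changes at 4 h. Those counts held no shift at 12 h, so they cannot speak to the library-wide differences at 12 h. Tables and figures were made in Python 3.11.15 with pandas 2.3.3, numpy 2.4.6 and matplotlib 3.10.9.

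The members and lists were chosen with earlier results of these data known. All members are named, with TPM of every cow for those called at 4 h or 12 h against control and for SREBF1, SREBF2, SCAP, INSIG1 and INSIG2. Of the other lists the up to 3 genes of smallest p at 12 h are named, and some listed genes are not reported here. The mean transcript length was compared by an exact two-sided permutation test over cows. With 4 cows per group, an SE includes the spread between cows and counting error.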

Additional observations from a re-analysis of the deposited data

Results flagged for a closer look

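Of 84 sets of 4 cows (28 genes in 3 groups), 2 had a cow far from the other 3 in TPM, and chance alone gives about 1 in 20 such sets. MVK was 179.44 TPM in control cow C-7367, with the other controls at 156.08 to 159.26 TPM. EBP was 68.03 TPM in 12 h cow 12H-6314, with the others at 95.21 to 98.1 TPM.

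For 19 of 28 members the effect at 12 h differed from the effect at 4 h by the edgeR test of 12 h with 4 h. In the same test 24.3% of all genes fell and 22.5% rose. The log2 difference was -1.0 for ACAT2, -1.33 for HMGCS1, -0.79 for MVK, -0.79 for MVD, -0.55 for IDI1 and 0.51 for GGPS1. It was -0.95 for FDFT1, -1.43 for SQLE, -1.30 for LSS, -1.24 for LBR, -0.77 for NSDHL, -0.82 for SC5D and -0.89 for DHCR7. It was -2.88 for STARD4, -0.66 for SREBF1, -0.62 for SREBF2, -1.46 for INSIG1, -0.28 for MBTPS1 and -0.74 for MBTPS2. With the correction for transcript length MBTPS1 was 0.00 and lost its call, and SREBF1 (-0.40) and SREBF2 (-0.26) lost theirs. The call of NSDHL was lost without cow 4H-4291 or 4H-5341 (-0.69 and -0.70, adjusted p = 0.0552 and 0.0538) and that of MBTPS1 without cow 4H-5341 (-0.22, adjusted p = 0.0674). Without cows 4H-6455 and 12H-6314 the calls of MVD (-0.50), IDI1 (-0.44) and INSIG1 (-0.96) were lost. The call of IDI1 was lost in 12 alternative fits in all, and that of GGPS1 by limma (0.23 and 0.24).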

How the results depend on the processing

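Of 1848 values of single members under other settings, 1707 kept their direction and their side of the threshold, 45 gained a call, 36 lost one and 60 changed sign; the cause was not tested. The number of members called at 4 h (1) became 2 by DESeq2, 0 by limma with either pseudocount, 2 with the length correction and 1 to 2 with each cow left out. Over all 14481 genes the calls were 2749 by DESeq2, 1635 and 1580 by limma with 1 and 0.1, and 2315 with the length correction. The members' median at 4 h became -0.0128 and -0.0131 by limma with a pseudocount of 1 and 0.1 and -0.0085 with the length correction, and was -0.0063 to 0.11 with each cow left out. At 12 h the median became -0.90 and -0.95 by limma with a pseudocount of 1 and 0.1, and for 12 h with 4 h -0.93 with 0.1. Calls over all genes at 4 h, 2062, were 1267 to 2174 with each cow left out, the lowest without control cow C-7514, then 1300 without cow 4H-5341 and 1373 without cow C-7367.

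Sign changes at 4 h concerned values near 0. INSIG2 became 0.0161 by DESeq2, 0.017 with RLE, 0.0156 in a fit of 2 groups, 0.0202 with the length correction, 0.0052 with no minimum, 0.0122 without mitochondrial genes, 0.00 with a minimum of 50 and 0.10 without cows 4H-6455 and 12H-6314. LSS became -0.026 and -0.0261 by limma with 1 and 0.1 and -0.0431 with the length correction, MBTPS2 in the same order -0.029, -0.0306 and -0.0424, and SREBF1 0.00 by limma with 0.1, -0.0082 with the length correction and -0.15 without the 2 cows. SREBF2 became -0.0089 with the length correction and MVD -0.0391 without the 2 cows. With each cow left out at 4 h, INSIG2 was -0.0817 to 0.0943, LSS -0.0526 to 0.12, SREBF1 -0.15 to 0.17, MBTPS2 -0.0576 to 0.0703, TM7SF2 -0.12 to 0.17, NSDHL -0.18 to 0.0015, EBP -0.0835 to 0.0176, DHCR7 -0.19 to 0.0281 and MVD -0.0396 to 0.20.

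At 12 h, limma with a pseudocount of 1 and 0.1 turned GGPS1 to -0.12 and -0.13, INSIG2 to -0.17 and -0.18, and MBTPS1 to -0.22 and -0.23; the length correction turned INSIG2 to -0.0061, and leaving out the 2 cows turned HSD17B7 to 0.0125. With each cow left out, INSIG1 was -0.54 to 0.11, HSD17B7 -0.29 to 0.0672, EBP -0.26 to 0.0389 and INSIG2 -0.0422 to 0.28. For 12 h with 4 h, INSIG2 was -0.14 by limma with either pseudocount and -0.0262 with the length correction, EBP was 0.0597 without the 2 cows, and with each cow left out they were -0.0446 to 0.27 and -0.22 to 0.0696. Depth limited STARD4 most, with 14 to 27 counts in the 12 h cows. No paired analysis was possible because the cow numbers in the labels are not shared between groups.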
